A study of Mus musculus with 6 samples.

Results

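Fc receptors are the proteins through which myeloid cells bind antibodies by their constant part. The 8 genes described here encode the mouse receptors for IgG (Fcgr1, Fcgr2b, Fcgr3, Fcgr4 and the intracellular receptor Fcgrt) and for IgE (Fcer1a and Ms4a2), with the gamma chain (Fcer1g) through which the activating receptors and the IgE receptor signal. They were taken as the genes of these names among the non-control probes of the array, which gave 8 genes, each with 1 probe, of 34741 genes and 55681 probes in all. Probes of this kind are 60 bases long.

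The series set mice deficient for TIARP (labelled TIARP-/-, here KO) against wild-type mice (TIARP+/+, here WT), all of strain C57BL/6. TIARP is the product of Steap4, a membrane metalloreductase. For each genotype there was 1 array of peritoneal macrophages elicited with thioglycollate for 3 days, 1 array of such macrophages labelled with TNFα for 24 h, and 1 array of Ly6G+ cells, a neutrophil fraction prepared from spleen with magnetic beads. The KO groups were thus macrophages without TNF, macrophages with TNF and splenic neutrophils, each set against the WT group of the same kind. The labels number 3 mice per group without saying whether their RNA was pooled on the array. Hours in culture appear in the labels only with TNF, so TNF and time in culture cannot be told apart. The age of the mice and the way the gene was deleted are not given either.

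The activating IgG receptors Fcgr1, Fcgr3 and Fcgr4 bind IgG outside the cell and signal through the common gamma chain, encoded by Fcer1g, whose tyrosines recruit the kinase Syk. The inhibitory receptor Fcgr2b carries its own inhibitory tyrosine motif, recruits the lipid phosphatase encoded by Inpp5d and sets the threshold of activation, and in macrophages the balance between both kinds governs uptake of immune complexes and release of cytokines. The IgE receptor of mast cells and basophils is built from Fcer1a, Ms4a2 and Fcer1g, while Fcgrt forms, with beta-2-microglobulin, the receptor that returns swallowed IgG to the cell surface and spares it from lysosomes.

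Of the 8 genes, 5 lay on chromosome 1 and 4 of these close together. In the coordinates of the array files, on build mm9, the probe of Fcgr2b lay at chr1:172890988-172891047 on the minus strand, that of Fcgr4 at chr1:172959738-172959797 on the plus strand, that of Fcgr3 at chr1:172984129-172984188 on the minus strand and that of Fcer1g at chr1:173159794-173159853 on the minus strand. The probe of Fcer1a lay farther along, at chr1:175151438-175151497 on the minus strand. The remaining probes lay on the minus strand of other chromosomes, at chr3:96086839-96086898 for Fcgr1, chr7:52350556-52350615 for Fcgrt and chr19:11691701-11691760 for Ms4a2. Which exon or untranslated part a probe covers was not annotated in the files.

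All 8 genes had a promoter window in RefSeq (build GRCm38.p6), running from 250 bases before to 50 bases after the transcription start. These windows were searched on both strands for 3 motifs. TTCNNNGAA, the GAS element of interferon-gamma-induced genes, was present in 1 of the 8, Fcgr1, and in 8.30% of 32851 promoters. The core of the ISRE element of interferon-induced genes, a pair of GAAA runs with 2 bases between them, was present in 1 of the 8, Fcgr4, and in 3.44% of all promoters. GAGGAA, a core of the sites of the myeloid factor PU.1, was present in 4 of the 8 (Fcgr1, Fcgr3, Fcgr4 and Fcer1a) and in 28.3% of all promoters. No motif match overlapped another in the windows of the members. The windows of the 3 activating receptors and of the inhibitory receptor are shown because activating and inhibitory IgG receptors are set against each other in the TNF comparison. Each runs 5′ to 3′ on the strand of its gene, with motif matches in capitals.
Fcgr1, chr3:96293920-96294219, minus strand: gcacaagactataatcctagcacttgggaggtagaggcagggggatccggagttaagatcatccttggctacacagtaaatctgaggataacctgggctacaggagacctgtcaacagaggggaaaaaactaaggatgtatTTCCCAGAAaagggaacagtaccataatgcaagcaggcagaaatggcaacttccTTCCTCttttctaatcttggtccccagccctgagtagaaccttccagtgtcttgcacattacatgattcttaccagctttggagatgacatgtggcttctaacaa
Fcgr4, chr1:171018676-171018975, plus strand: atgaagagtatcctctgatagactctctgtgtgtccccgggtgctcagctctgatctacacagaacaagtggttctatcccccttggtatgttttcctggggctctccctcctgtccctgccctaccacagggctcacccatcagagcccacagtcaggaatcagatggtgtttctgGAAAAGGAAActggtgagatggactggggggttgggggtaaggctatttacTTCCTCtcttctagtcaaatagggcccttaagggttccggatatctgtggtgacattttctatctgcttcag
Fcgr3, chr1:171059354-171059653, minus strand: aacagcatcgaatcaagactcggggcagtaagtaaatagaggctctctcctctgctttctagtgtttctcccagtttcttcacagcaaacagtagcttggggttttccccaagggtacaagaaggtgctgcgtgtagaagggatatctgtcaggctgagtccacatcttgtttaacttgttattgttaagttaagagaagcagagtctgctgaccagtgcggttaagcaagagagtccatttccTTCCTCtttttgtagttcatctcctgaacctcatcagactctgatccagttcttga
Fcgr2b, chr1:170976022-170976321, minus strand: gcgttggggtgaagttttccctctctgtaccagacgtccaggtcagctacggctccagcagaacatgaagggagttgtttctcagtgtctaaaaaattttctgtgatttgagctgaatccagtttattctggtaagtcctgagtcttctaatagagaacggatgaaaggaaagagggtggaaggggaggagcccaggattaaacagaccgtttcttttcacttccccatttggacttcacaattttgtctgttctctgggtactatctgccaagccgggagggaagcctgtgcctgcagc
In the Fcgr1 window the GAS match read TTCCCAGAA and lay at bases -109 to -101 from the start, followed by a PU.1 core match on the opposite strand at -55 to -50. In the Fcgr4 window the ISRE match read GAAAAGGAAA and lay at -73 to -64, followed by a PU.1 core match on the opposite strand at -22 to -17. The Fcgr3 window shown held a PU.1 core match at -6 to -1, also on the opposite strand. RefSeq gives Fcgr3 another window, at chr1:171059345-171059644, in which the same match lay at -15 to -10. The Fcgr2b window held no match to the 3 motifs. A match describes letters in the window and not a site in use.

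**Figure D1:**
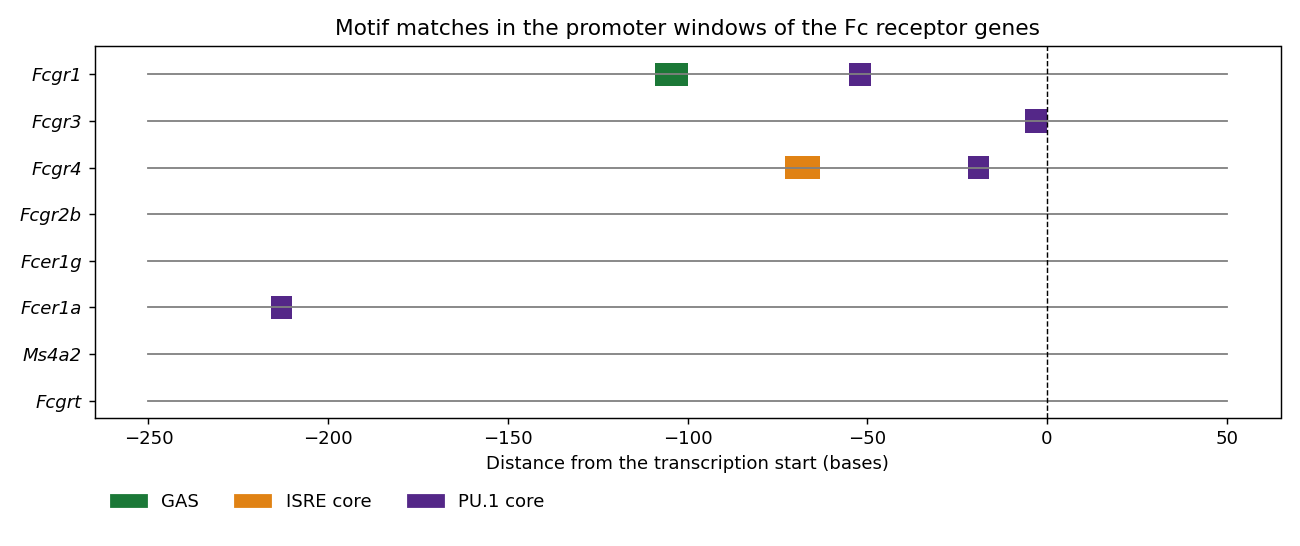
Motif matches (coloured boxes) in the RefSeq promoter window of each gene (for Fcgr3 the window printed in the text), plotted by distance from the transcription start in bases. Fcgr1 holds the GAS match and Fcgr4 the ISRE core match, both with a PU.1 core match nearer to the start, and Fcgr2b, Fcer1g, Ms4a2 and Fcgrt hold none of the 3.

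Levels are given as relative signal, the processed intensity of the probe divided by the 75th percentile of its array. Differences are given on the log2 scale, and a gene was counted as higher or lower when its difference was at least 1 in size (2-fold) and the scanner software marked its probe as well above background in the brighter of both samples. Where the dimmer sample lacked that mark, the difference is a bound and is given as "at least". With 1 array per group there were no replicates to set a difference against, and no p-value is given. Repeated spots of 1 probe on 1 array differed with a median SD of 0.06 log2 units, over 245 probes, which covers spotting and scanning only. Levels of different probes are not set against each other, and sums of relative signal over a list weigh its brightest probes most. The 75th percentile signals of the arrays ranged from 224 to 490, between 56.6% and 62.2% of probes were well above background, and 0 spots were saturated. Another scale, set by 8 spike-in probes, lowered every KO-minus-WT difference, by 0.52 in macrophages without TNF, 0.78 in those with TNF and 0.41 in neutrophils. It lowered the TNF differences by 0.30 in KO and 0.04 in WT, and the neutrophil-minus-macrophage differences by 1.47 in KO and 1.58 in WT. The log2 differences of the 8 probes themselves varied, so this scale is uncertain too. Their SD was 0.27, 0.18 and 0.42 for KO minus WT, in the order above. For TNF it was 0.41 in KO and 0.29 in WT, and for neutrophils minus macrophages 0.70 in KO and 0.80 in WT. The targeted gene, Steap4, had a relative signal of 0.203 in KO against 0.357 in WT macrophages without TNF, 0.0379 (not well above background) in KO against 0.114 in WT macrophages with TNF, and 0.161 in KO against 0.211 in WT neutrophils. Whether its probe lies in the deleted part is not given, so these values do not check the labels.

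The high-affinity receptor Fcgr1, which binds monomeric IgG, and Fcgr4, an activating receptor for IgG2 subclasses, were the members with the widest range among the macrophage arrays. Fcgr1 had a relative signal of 16.2 in KO and 11.5 in WT macrophages without TNF. With TNF it had 2.94 in KO and 0.665 in WT macrophages. In splenic neutrophils it had 0.722 in KO and 1.70 in WT. Both macrophage arrays without TNF thus stood above the other 4, and the lowest value was that of WT macrophages with TNF, 24.3-fold below the highest.

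Fcgr4 had a relative signal of 18.9 in KO and 11.3 in WT macrophages without TNF. With TNF it had 1.95 in KO and 0.703 in WT macrophages, and in neutrophils 9.72 in KO and 9.17 in WT. Neutrophils of both genotypes were close to WT macrophages without TNF, and both arrays with TNF lay below the other 4.

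The low-affinity activating receptor Fcgr3 varied least of the IgG receptors. It had a relative signal of 22.6 in KO and 17.4 in WT macrophages without TNF. With TNF it had 21.9 in KO and 18.2 in WT macrophages, and in neutrophils 8.44 in KO and 6.02 in WT. The 4 macrophage arrays lay within 1.5-fold of each other and above both neutrophil arrays. Its probe, shown because the parts of Fcgr3 and Fcgr2b outside the cell are known to be nearly identical, starts at base 550 of the transcript.
Fcgr3 probe, chr1:172984129-172984188, minus strand: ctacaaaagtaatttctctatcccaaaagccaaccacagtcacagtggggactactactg
How far Fcgr2b RNA adds to the signal of this probe was not tested.

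The inhibitory receptor Fcgr2b was spotted 10 times per array, of which 9 or 10 spots were used. It had a relative signal of 17.6 in KO and 11.8 in WT macrophages without TNF. With TNF it had 38.4 in KO and 30.4 in WT macrophages, and in neutrophils 4.47 in KO and 4.40 in WT. Single spots ran from 33.9 to 41.3 in KO and from 27.9 to 32.2 in WT macrophages with TNF, and from 15.7 to 18.9 in KO and from 10.6 to 12.4 in WT macrophages without TNF. On this scale the spots of the arrays with and without TNF did not overlap in either genotype. Neither did those of KO and WT macrophages in either condition. In neutrophils, where spots ran from 4.06 to 4.78 in KO and from 4.14 to 4.72 in WT, they did overlap. All spots of an array share its scaling, so the gap between KO and WT depends on the scale. Before scaling, the averaged signal with TNF was 12984 in KO and 13116 in WT macrophages. With scaling to the spike-in probes the KO-minus-WT difference there was -0.44. The SD between spots was 0.06 to 0.09 on the log2 scale and does not hold the spread between mice.

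The common gamma chain Fcer1g followed the order of Fcgr2b. It had a relative signal of 192 in KO and 160 in WT macrophages without TNF. With TNF it had 340 in KO and 292 in WT macrophages, and in neutrophils 99.1 in KO and 96.2 in WT. The order of the arrays, macrophages with TNF, then macrophages without TNF, then neutrophils, was the same for both genes, with KO above WT in each condition, though scaling to the spike-in probes put KO below WT in all 3 conditions for Fcer1g and, with TNF and in neutrophils, for Fcgr2b. Neighbours in that order were less than 2-fold apart for Fcer1g.

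The IgE-binding chain Fcer1a was low on this scale and well above background on 4 of the 6 arrays. Its relative signal was 0.653 in KO and 0.270 in WT macrophages without TNF. With TNF it was 0.546 in KO and 0.211 in WT macrophages. Both neutrophil arrays, at 0.0152 in KO and 0.0140 in WT, were not well above background. The beta chain Ms4a2, which amplifies the signal of the IgE receptor, was not well above background on any of the 6 arrays, so it enters no comparison.

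The neonatal Fc receptor chain Fcgrt had a relative signal of 10.6 in KO and 3.67 in WT macrophages without TNF. With TNF it had 1.81 in KO and 1.12 in WT macrophages, and in neutrophils 4.13 in KO and 8.69 in WT. KO was above WT on both macrophage pairs and below it on the neutrophil pair. With scaling to the spike-in probes the KO-minus-WT difference with TNF had the opposite sign, at -0.09. Its probe is shown because these values differed in direction between cell types.
Fcgrt probe, chr7:52350556-52350615, minus strand: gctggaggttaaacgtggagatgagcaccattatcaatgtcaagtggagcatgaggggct

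**Figure D2:**
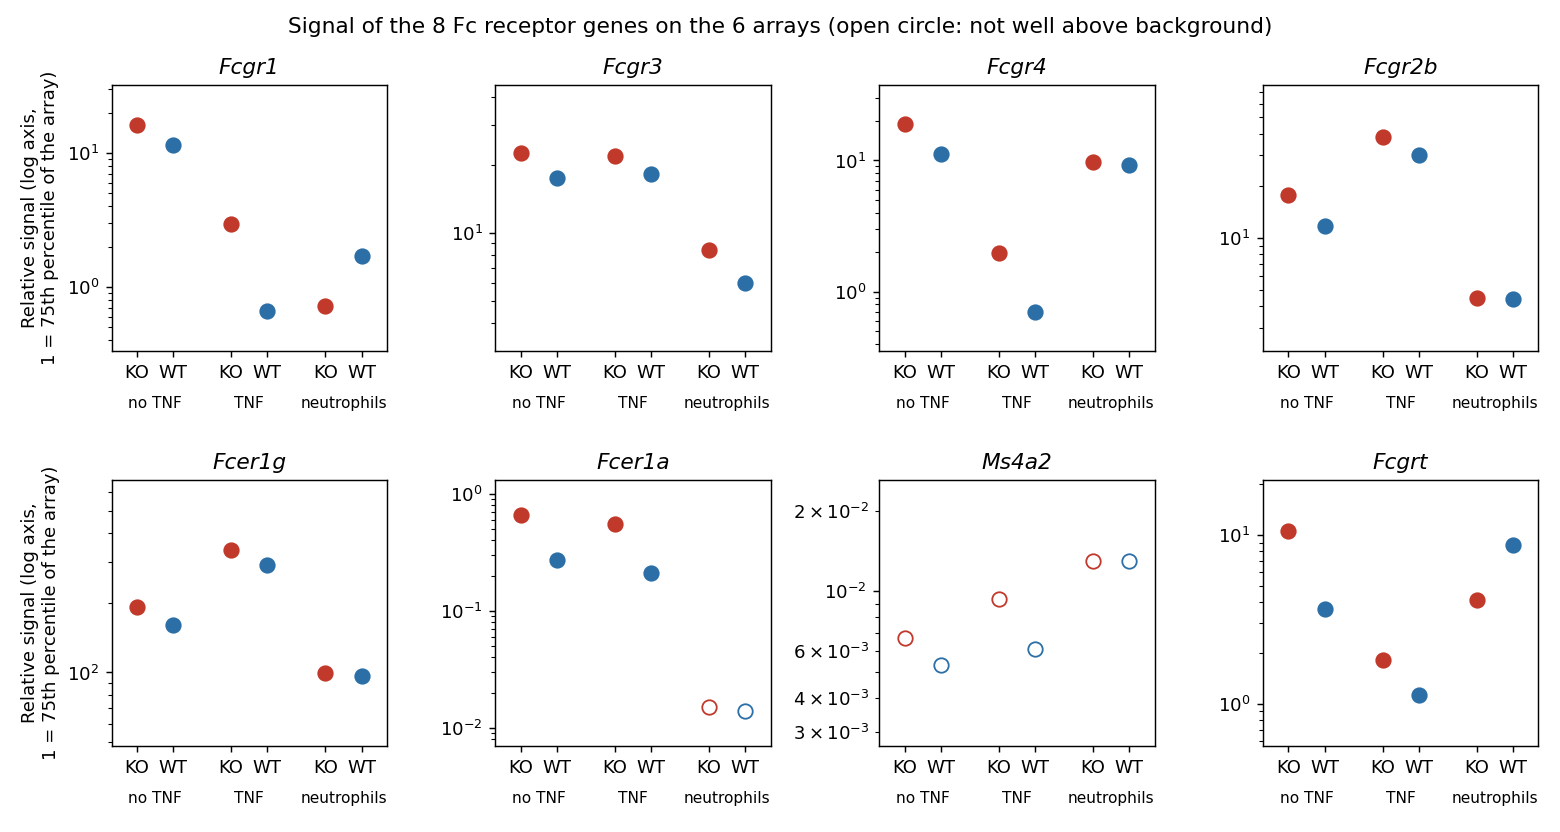
Relative signal (log axis, with its own range for each gene) of the 8 genes on the 6 arrays, with KO in red and WT in blue, 1 point per array and open circles where the probe was not well above background. Fcgr1 and Fcgr4 are lowest among macrophages on the 2 arrays with TNF, Fcgr2b and Fcer1g are highest there, and Ms4a2 has open circles throughout.

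The comparison of macrophages with and without TNF describes how the receptors differ between these arrays, where TNF and time in culture cannot be told apart. In both genotypes the activating receptors Fcgr1 and Fcgr4 and the recycling receptor Fcgrt were lower with TNF, the inhibitory receptor Fcgr2b was higher, and Fcgr3 and Fcer1a differed by less than 2-fold. In KO macrophages, 1 of 7 measured members was higher and 3 were lower, where 4.45% and 3.73% of 23911 genes tested were higher and lower (8.18% in all). In WT macrophages the counts were again 1 higher and 3 lower of 7, where 4.41% and 4.60% of 24599 genes were. The 2 comparisons have no array in common.

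Fcgr1 was lower with TNF by a log2 difference of -2.46 in KO (5.51-fold) and -4.11 in WT macrophages (17.2-fold). Of all genes tested, 0.39% in KO and 0.041% in WT macrophages had a lower difference. Fcgr4 was lower by -3.27 in KO (9.67-fold) and -4.01 in WT (16.1-fold), and 0.136% of genes in KO and 0.057% in WT had a lower difference. Fcgrt was lower by -2.55 in KO (5.87-fold) and -1.71 in WT (3.27-fold). These 3 kept their direction and stayed past 2-fold under every scaling tried.

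Fcgr2b was higher with TNF by 1.12 in KO (2.18-fold) and 1.37 in WT macrophages (2.58-fold). In KO this came under 2-fold with quantile normalization (1.00 after rounding) and with scaling to the spike-in probes (0.82). Fcer1g had differences of 0.82 in KO and 0.87 in WT, so it stayed under 2-fold. Fcgr3 had -0.04 in KO and 0.06 in WT, and Fcer1a had -0.26 in KO and -0.36 in WT. The log2 difference of Fcgr1 minus that of the inhibitory receptor Fcgr2b was -3.59 in KO and -5.48 in WT, and for Fcgr4 it was -4.40 in KO and -5.37 in WT. Scaling an array by a constant does not change these contrasts.

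**Figure D3:**
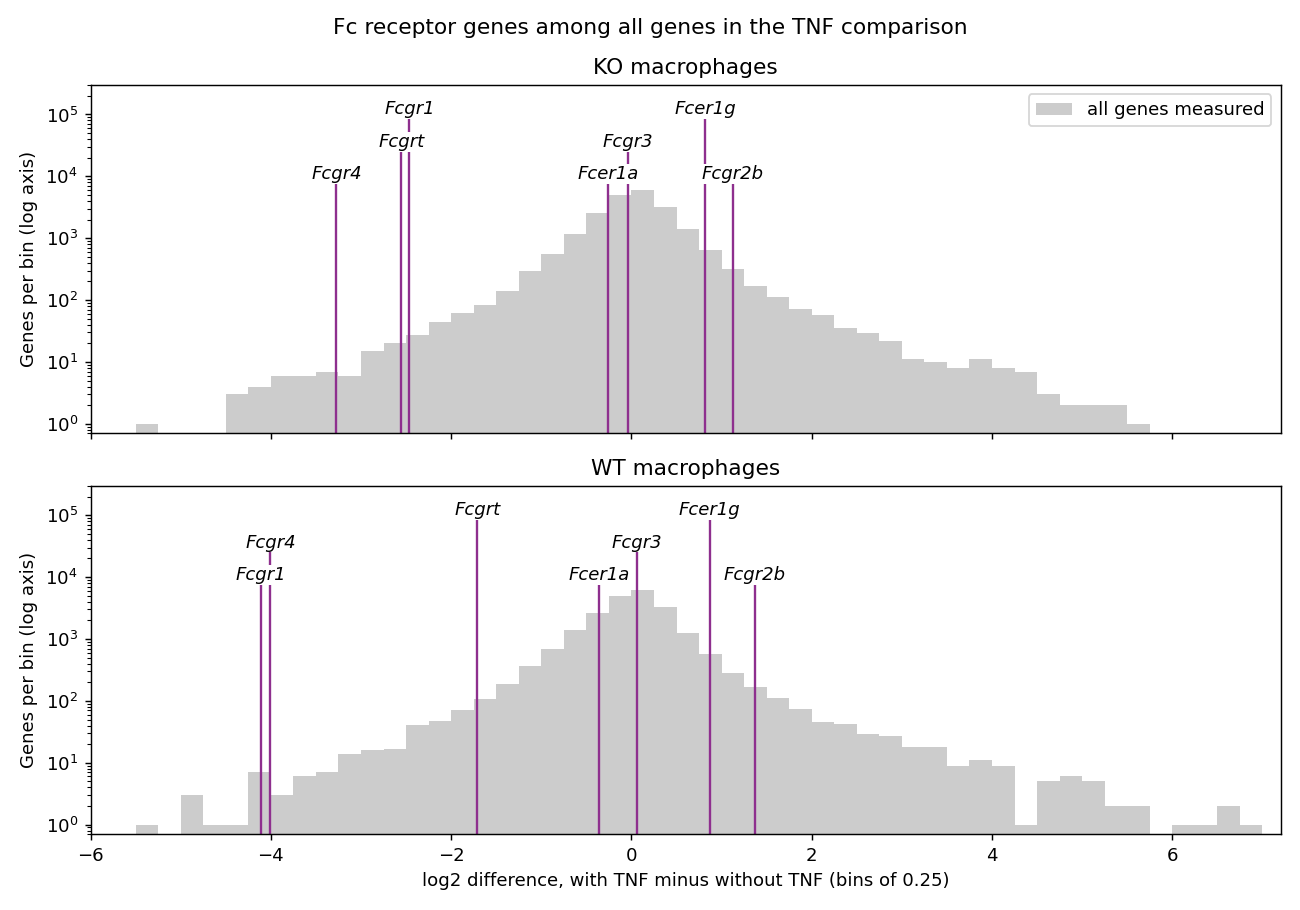
Log2 differences, with TNF minus without TNF, of the 7 measured members (purple lines) among all genes measured on both arrays (grey bars, bins of 0.25, log axis for gene counts), for KO macrophages above and WT macrophages below. Fcgr1, Fcgr4 and Fcgrt lie in the left tail in both genotypes, Fcgr3 and Fcer1a near 0, and Fcgr2b on the right.

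The TNF difference itself was compared between genotypes as KO minus WT. Fcgr1 had a value of 1.65, its TNF difference being smaller in KO, and was the 1 member of 7 at or above 1 in size, where 2.12% of 21739 genes were. Fcgr4 had 0.73 and Fcgrt -0.84, so the Fcgrt difference was larger in KO, and the other 4 members lay between -0.24 for Fcgr2b and 0.10 for Fcer1a. The value of Fcgr1 ranged from 1.39 to 1.66 over the alternatives. With scaling to the spike-in probes that of Fcgrt was -1.10 and that of Fcer1a had the opposite sign, at -0.16. This difference of differences could not be tested, having 1 array in each cell of the design.

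Markers of several cell types moved with the TNF comparison too. Of 10 macrophage markers, 5 were lower with TNF in KO and 5 in WT, among them C1qb (-3.28 in KO, -3.53 in WT), C1qc (-2.92, -3.03), C1qa (-2.61, -2.80) and Mertk (-1.99, -2.04). Cd14 was higher (2.10 in KO, 1.81 in WT). The summed relative signal of this list was 1353 with TNF against 1363 without in KO, and 1148 with TNF against 1160 without in WT, and all 10 were well above background on all arrays. Csf1r, Cd68 and Lyz2 gave most of each sum (364, 386 and 342 in KO with TNF). None of these was past 2-fold in either genotype, so the sums say little of the markers that were lower. Of the 4 monocyte markers on the array, Ccr2, a chemokine receptor of inflammatory monocytes, was lower with TNF in KO (-3.64) and in WT (-3.73), and F13a1 in WT (-1.60). The monocyte list summed to 68.9 with TNF against 75.8 without in KO, and to 11.9 with TNF against 32.3 without in WT. Of 10 neutrophil markers, 3 were higher with TNF in KO and 4 in WT, led by Trem3 (2.88 in KO, 3.46 in WT) and Mmp9 (2.19, 3.89), with sums of 504 with TNF against 455 without in KO and 249 with TNF against 176 without in WT. Under spike-in scaling 2 neutrophil markers were higher and 2 lower with TNF in KO. Of 6 eosinophil markers, 2 were higher and 2 lower in each genotype, among them Ear1 (-2.03 in KO, -3.16 in WT), with sums of 6.51 with TNF against 6.57 without in KO and 7.38 with TNF against 6.14 without in WT, and Epx was not well above background. Of the mast cell markers 1 was lower in KO, Cpa3 (-1.06), and 0 were past 2-fold in WT. Of 6 NK cell markers 1 was higher and 2 lower in WT, with 0 past 2-fold in KO. Of 5 plasma cell markers 1 was higher in each genotype, Sdc1 (1.11 in KO, 1.09 in WT), and of 9 B cell markers 0 were past 2-fold. In such bulk samples, fewer cells of a type and less RNA per cell cannot be told apart, and the part of these markers in the receptor differences was not tested.

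KO macrophages without TNF were set against WT macrophages without TNF, with 1 array of each. Fcgrt was higher in KO by 1.53 (2.89-fold) and Fcer1a by 1.27 (2.42-fold), and the other 5 measured members differed by less than 2-fold. Thus 2 of 7 were higher and 0 lower, where 4.09% of 24584 genes tested were higher and 1.55% lower (5.64% in all). Differences of the IgG receptors were 0.74 for Fcgr4, 0.59 for Fcgr2b, 0.50 for Fcgr1 and 0.37 for Fcgr3, and that of Fcer1g was 0.27. The median of the 7 was 0.59, against 0.07 over all genes tested. All 7 were positive, but with scaling to the spike-in probes Fcgr1 (-0.03), Fcgr3 (-0.15) and Fcer1g (-0.26) turned negative, Fcer1a (0.75) came under 2-fold and Fcgrt (1.01) stayed past it.

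With TNF, Fcgr1 was higher in KO by 2.14 (4.42-fold), Fcgr4 by 1.47 (2.78-fold) and Fcer1a by 1.37 (2.59-fold). Thus 3 of 7 members were higher and 0 lower, where 6.98% of 23704 genes were higher and 2.69% lower (9.67% in all). The comparison shares its arrays with those of TNF above. Of all genes tested, 1.21% had a larger difference than Fcgr1 and 3.11% a larger one than Fcgr4. Fcgrt had 0.69, Fcgr2b 0.34, Fcgr3 0.27 and Fcer1g 0.22. With scaling to the spike-in probes Fcgr1 (1.36) stayed past 2-fold, Fcgr4 (0.69) and Fcer1a (0.59) did not, and Fcgrt (-0.09), Fcgr2b (-0.44), Fcgr3 (-0.51) and Fcer1g (-0.56) turned negative. Relative to Fcgr2b on the same arrays, the KO-minus-WT difference was larger by 1.80 for Fcgr1 and by 1.13 for Fcgr4, and for Fcgr3 it stood at -0.07.

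Markers of other cells differed between the KO and WT macrophage arrays as well. Of 12 mast cell and basophil markers, Cpa3 (1.15) and Tpsb2 (1.02), both proteases of mast cell granules, were higher in KO without TNF, and Tpsb2 (1.5), Cma1 (1.23) and Hdc (1.08) with TNF. Their summed relative signal was 8.21 in KO against 4.58 in WT without TNF, and 7.86 in KO against 4.05 in WT with TNF. The basophil protease Mcpt8 was not well above background on any of these arrays, nor was Mrgprb2 on the arrays with TNF. Kit, the stem cell factor receptor of mast cells, differed by 0.05 without and 0.17 with TNF. None of these calls was left with scaling to the spike-in probes, where 0 markers of the list were higher in KO in either condition and 1 was lower with TNF. The list medians were then 0.08 without and 0.06 with TNF. That scale lowered the differences of all genes alike, by 0.52 without and 0.78 with TNF, so the medians over all genes fell too. Among 10 neutrophil markers, 5 were higher in KO without TNF and 4 with TNF, led by S100a9 (4.92 without, 4.10 with) and Cxcr2 (3.88, 3.53), with sums of 455 in KO against 176 in WT without TNF and 504 in KO against 249 in WT with TNF. Among 9 B cell markers, 5 were higher without and 7 with TNF, among them Cd79b (1.99 without, 2.31 with) and Ms4a1 (1.96, 1.87), with sums of 21.4 in KO against 7.35 in WT and 16.0 in KO against 5.36 in WT, while Pax5 was not well above background. Of the 4 monocyte markers 2 were higher in each condition, among them F13a1 (1.41 without, 3.03 with). The counts of higher genes without and with TNF were 4 and 3 for neutrophil markers, 5 and 4 for B cell markers, and 1 and 1 for monocyte markers with scaling to the spike-in probes, where 3 neutrophil markers were also lower with TNF. None of the 10 macrophage markers was past 2-fold in either condition, with list medians of 0.33 without and 0.56 with TNF, whereas 1 was lower in each with scaling to the spike-in probes. Of the eosinophil markers 0 were past 2-fold without TNF, and with TNF 2 were higher, Ear1 (2.04) and Ear2 (1.27), and 1, Prg2, was lower, with a bound of -1.27. With spike-in scaling 2 eosinophil markers were lower without TNF, and 1 was higher and 3 lower with TNF. Of the NK cell markers 1 was higher and 1 lower with TNF, and of the plasma cell markers 1 was higher without TNF, Derl3 (1.08). The part of these markers in the receptor differences was not tested.

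In splenic neutrophils, Fcgr1 was lower in KO by -1.24 (2.36-fold) and Fcgrt by -1.07 (2.10-fold). The other members measured, Fcgr3 (0.49), Fcgr4 (0.08), Fcer1g (0.04) and Fcgr2b (0.02), differed by less than 2-fold, and with scaling to the spike-in probes the last 3 of these turned negative. Thus 0 of 6 were higher and 2 lower, where 3.65% of 23970 genes were higher and 4.74% lower (8.39% in all). With normexp background correction Fcgr1 (-0.99) came just under 2-fold.

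Both neutrophil arrays carried signal of other spleen cells. Of 10 macrophage markers 6 were lower in KO: Adgre1 (-1.39), C1qa (-1.29), C1qc (-1.26), Mertk (-1.22), C1qb (-1.19) and Cd68 (-1.11), with a sum of 275 in KO against 509 in WT. Of 5 plasma cell markers 4 were lower, Tnfrsf17 (-3.02), Sdc1 (-2.28), Jchain (-1.71) and Derl3 (-1.68), with a sum of 179 in KO against 586 in WT. Jchain alone gave 172 of this sum in KO and 564 in WT. Of 6 eosinophil markers 4 were lower in KO, Prg2 (-4.05), Ear2 (-1.38), Ear1 (-1.36) and Ccr3 (-1.15), and Siglecf was higher (1.57), with a sum of 20.6 in KO against 55.1 in WT and Epx not well above background. On the mast cell and basophil list of 12, Hdc was higher in KO by 2.06 and Mcpt4 by at least 1.24. The list summed to 127 in KO against 33.6 in WT, of which Hdc alone gave 122 in KO and 29.3 in WT. Cpa3, Tpsab1, Cma1, Mcpt8, Cd200r3 and Mrgprb2 were not well above background on either array. None of the NK cell or monocyte markers was past 2-fold. The 9 B cell markers summed to 654 in KO and 647 in WT, with 0 of 9 past 2-fold. Of 10 neutrophil markers, which summed to 2745 in KO and 2228 in WT, 3 were higher in KO, Cxcr2 (1.63), Mxd1 (1.53) and Mmp8 (1.21). Their part in the values of Fcgr1 and Fcgrt was not tested.

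**Figure D4:**
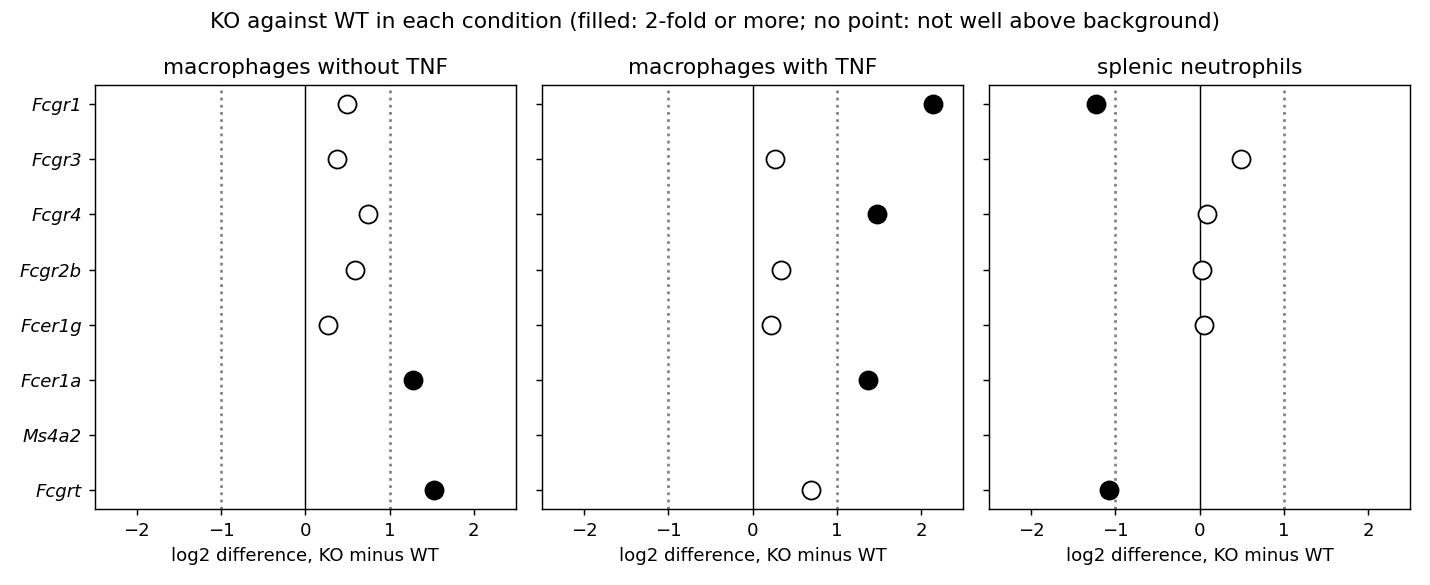
Log2 differences, KO minus WT, of each gene for both kinds of macrophages and for splenic neutrophils, 1 point per gene, filled at 2-fold or more and missing where the probe was not well above background. Points of macrophages lie right of 0, though 3 without TNF and 4 with TNF turned negative with scaling to the spike-in probes, and Fcgr1 and Fcgrt lie left of -1 in neutrophils.

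Between cell types, neutrophils were set against macrophages without TNF. In KO, 5 of 7 members were lower in neutrophils and 0 higher, where 19.6% and 25.3% of 24919 genes were lower and higher (44.9% in all). Fcgr1 was lower by -4.49 (22.4-fold), Fcgr2b by -1.98 (3.95-fold), Fcgr3 by -1.42 (2.67-fold), Fcgrt by -1.36 (2.57-fold) and Fcer1a by at least 13.9-fold. In WT, 4 of 7 were lower and 1 higher, where 17.9% and 26.4% of 25057 genes were (44.3% in all). Fcgr1 was lower by -2.75 (6.74-fold), Fcgr3 by -1.53 (2.89-fold), Fcgr2b by -1.42 (2.67-fold) and Fcer1a by at least 5.63-fold, whereas Fcgrt was higher by 1.25 (2.37-fold). That direction of Fcgrt in WT was the opposite, -0.33, with scaling to the spike-in probes. Fcgr4 (-0.96 in KO, -0.30 in WT) and Fcer1g (-0.96, -0.73) stayed under 2-fold, though each came past it in both genotypes with scaling to the spike-in probes, and Fcer1g also with quantile normalization (-1.14 in KO, -1.08 in WT) and with removal of the intensity trend (-1.17, -1.08). In KO, normexp correction brought Fcgr4 (-1.07) and Fcer1g (-1.18) past it too. The bound of Fcer1a in WT came under 2-fold with normexp correction (-0.66). Cell type went together with organ here, and these cannot be told apart, nor is it stated whether the mice that gave neutrophils had received thioglycollate. Of 10 neutrophil markers, 9 in KO and 8 in WT were higher on the neutrophil arrays. Of 10 macrophage markers, 9 in KO and 5 in WT were lower on the neutrophil arrays and 0 were higher. The other markers in WT, among them C1qc (-0.03) and Csf1r (0.19), stayed under 2-fold on this scale. The part of spleen macrophages in the receptor values of the neutrophil arrays was not tested. All 9 B cell markers were higher on the neutrophil arrays than on the macrophage arrays in both genotypes. The part of B cells in Fcgr2b, which B cells express too, was not tested.

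The genes around the receptors that carry the signal inward were followed in lists. Of 19 genes downstream of the activating receptors, 0 were past 2-fold between KO and WT in any of the 3 conditions. Medians were 0.20 in macrophages without TNF, 0.06 in those with TNF and 0.25 in neutrophils, against 0.07, 0.06 and -0.01 over all genes tested. Under spike-in scaling 2 of the 19 were lower in KO than in WT macrophages with TNF. Between macrophages with and without TNF, 4 of the 19 were higher with TNF in KO: the calcium channel Itpr2 (2.02), the lipid kinase subunit Pik3cg (1.26), the adaptor Lat (1.16) and the Src-family kinase Fgr (1.14). The exchange factor Vav3 was lower (-1.02). In WT macrophages 4 were higher, among them Itpr2 (1.99), Lat (1.68) and Fgr (1.07), and 0 lower. Over all genes tested, 4.45% were higher and 3.73% lower with TNF in KO, and 4.41% and 4.60% in WT. Scaling to the spike-in probes, which lowered the KO differences by 0.30, brought Pik3cg, Lat and Fgr under 2-fold in KO. The list medians were 0.37 in KO and 0.22 in WT, against 0.03 and 0.02 over all genes. Of 10 inhibitors of Fc receptor signalling, which include the phosphatases Inpp5d and Ptpn6, 0 were past 2-fold between genotypes or with TNF, and 1 was lower with TNF in KO under spike-in scaling. Their medians with TNF were -0.23 in KO and -0.10 in WT.

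Of 11 genes in the list of receptors that pair with the gamma chain, with the related adaptor Tyrobp, 4 were higher with TNF in each genotype and 0 lower. Clec4e (Mincle), a receptor for mycobacterial glycolipid, was higher by 4.81 in KO and 5.60 in WT. Its relative signal was 385 with TNF against 13.7 without in KO, and 324 with TNF against 6.67 without in WT. Clec4n (Dectin-2), a receptor for fungal mannans, was higher by 3.51 in KO and 3.08 in WT, and the cytokine receptor chain Csf2rb by 1.20 and 1.26. Gp6, the collagen receptor of platelets, was higher by at least 16.9-fold in KO and 17.9-fold in WT, since it was not well above background without TNF. Over all genes tested, 4.45% in KO and 4.41% in WT were higher with TNF. Csf2rb in KO came under 2-fold with scaling to the spike-in probes. The list medians were 0.52 in KO and 0.54 in WT, against 0.03 and 0.02 over all genes tested. Between genotypes, Clec4e was higher in KO macrophages without TNF (1.04) and in KO neutrophils (1.08), and Clec4n was lower in KO neutrophils (-1.05). Both calls of Clec4e were lost with scaling to the spike-in probes.

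Of 12 other immunoglobulin-binding receptors and partners, 3 were higher in KO macrophages without TNF: the IgM receptor Fcmr (2.07), Fcrla (1.69) and Fcrlb (1.39). With TNF, Fcmr (2.14) and Fcrla (1.84) were higher in KO. Under spike-in scaling 2 were higher without and 2 with TNF. Fcmr and Fcrla are known from B cells, whose markers were higher on the same arrays, and Fcrla was itself in the B cell list. With TNF minus without, Fcrlb was higher by 1.58 in KO and 2.02 in WT, and Fcrl1 was lower (-2.19 in KO, -2.69 in WT). In neutrophils Fcrlb was lower in KO (-1.01).

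Interferon-induced genes were followed because Fcgr1 and Fcgr4 are known to be induced by interferon-gamma. Of 18, 6 were higher in KO than in WT macrophages with TNF and 0 lower, among them Ifi44 (4.99), the antiviral GTPase Mx1 (1.49), the transcription factor Irf7 (1.47) and Ifit3 (1.40), with a median of 0.87 against 0.06 over all genes. Under spike-in scaling 1 was higher and 2 were lower, with a median of 0.09. That scale lowered the differences of all genes alike, by 0.78, so the median over all genes fell with that of the list. Without TNF 1 of the 17 measured was higher, Ifi44 (4.65), with a median of 0.43. With TNF minus without, 6 were higher in KO and 3 in WT, led by Gbp2 (2.43 in KO, 2.37 in WT) and the chemokine Cxcl10 (2.22, 2.71), and Mx1 was lower in both (-1.05, -1.88). The medians there were 0.60 in KO and 0.20 in WT, while Fcgr1 and Fcgr4 were lower. In KO neutrophils 3 were higher, Rsad2 (1.64), Ifi44 (1.56) and Isg15 (1.24), and Cxcl9 was lower (-1.19), whereas 2 were higher and 2 lower with scaling to the spike-in probes.

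**Figure D5:**
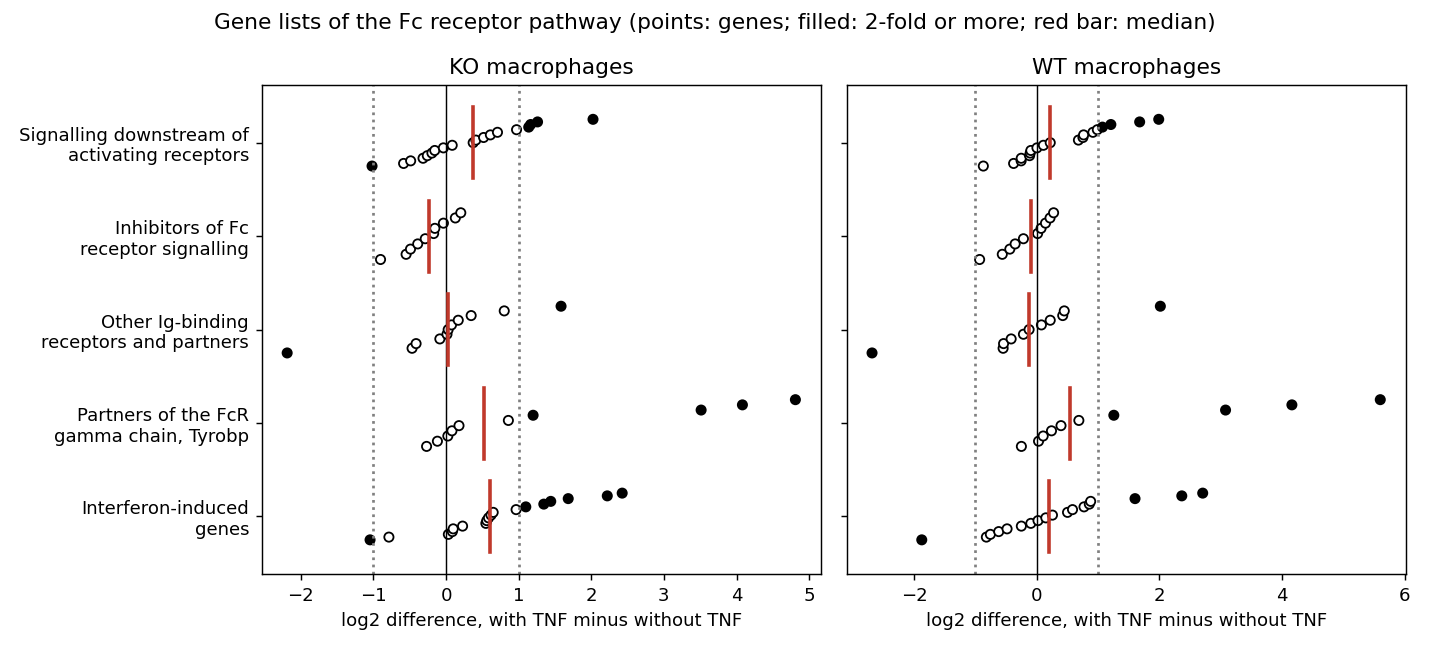
Log2 differences, with TNF minus without TNF, of the genes of 5 lists around the Fc receptors in KO macrophages at left and WT macrophages at right, 1 point per gene, filled at 2-fold or more (bounds drawn at their value), with the list median as a red bar. No inhibitor is filled in either genotype, and 4 genes of the list of gamma chain partners are filled at right of 1 in each.

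The patterns over the 6 arrays were compared by Pearson's r of log2 values, as a description, since the 6 arrays share 3 conditions and 2 genotypes. Fcgr2b and Fcer1g had r = 0.996, Fcgr4 and Fcgrt 0.911, and Fcgr3 and Fcgr2b 0.895, while Fcgr4 and Fcgr2b had -0.64. Among 6344 genes that varied enough to be compared, those most like Fcgr1 included Ethe1 (0.989) and Ppfia4 (0.982), and 15 genes reached 0.95. Those most like Fcgr4 were Tgfbr2 (0.994), Sat1 (0.976) and Lfng (0.976), with 17 genes at 0.95 or above. Those most like Fcgrt were Itgb4 (0.983), Ada (0.970) and Klf11 (0.960), with 6 such genes. The pattern of Fcgr2b was common, with 614 genes at 0.95 or above, led by Abca3 (0.999), Tnfsf9 (0.998) and Optn (0.997). Fcer1g had 374 such genes, led by Abca3 (0.998) and Tnfsf9 (0.997), and Fcgr3 had 762, led by Tubgcp4, Ugt1a6b and Ipmk.

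Between Fcgr2b and Fcer1g on chromosome 1, RefSeq lists 7 further protein-coding genes, all of them on the array. With TNF minus without, 1 of the 7, Pcp4l1, was lower in each genotype and 0 were higher. In KO against WT macrophages 0 of 7 were past 2-fold without TNF, 1 was higher with TNF (Nr1i3), and 0 were past it in neutrophils. Pcp4l1 and Nr1i3 were named after their values were seen.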

How the data were processed

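Total RNA labelled with Cy3 was hybridised to 6 single-colour Agilent mouse arrays, 1 per group, all on 1 slide and in 1 scan per the file headers, so no batch could be tested. The scanner software was Agilent Feature Extraction, version 10.7.3.1, per the submitters' processing notes. The deposited processed intensity is linear, background-subtracted and detrended within each array, per the file headers, with dim spots given a surrogate value, and was not normalized between arrays. Probe coordinates were on mm9.

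From it, spots flagged as outliers were left out, repeated spots were averaged, log2 was taken and each array's 75th percentile over 55681 gene probes was subtracted. Names came from RefSeq (GRCm38.p6). For genes with several probes, that of the highest mean signal was used. The call rule (a log2 difference of at least 1 and the background mark) was checked on simulated data with changes of known size. The only noise in them was the spread between spots (SD 0.06), so that check does not cover the spread between mice or arrays. With 1 array per group no difference within a condition could be tested, and genotype was not modelled over the 3 conditions together, with the spread of their KO-minus-WT differences as error. The members and the 13 lists (5 of pathways, 8 of markers, 130 of 131 entries on the array) were chosen with earlier results of these data known. Members were named throughout. List genes past the rule were named up to the 4 largest per comparison, further ones after their values were seen, and the 3 most similar genes were taken from genes well above background on all 6 arrays with an SD of at least 0.5. Protein sequences were not used here, so the planned search for tyrosine motifs was not run. The 10 alternatives included normexp correction (limma 3.58.1 in R 4.3.3, offset 50), quantile and spike-in scaling, other filters on dim probes and a 1.5-fold threshold. Tables were made with Python 3.11.15, pandas 2.3.3, numpy 2.4.6 and statsmodels 0.14.6. Some genes that these rules select are not reported here.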

Additional observations from a re-analysis of the deposited data

Results flagged for a closer look

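For Fcgr1 the KO-minus-WT difference ran in opposite directions in macrophages with TNF and in splenic neutrophils. It was 2.14 on the log2 scale in macrophages with TNF and -1.24 in neutrophils, so they differed by 3.38. For Fcgrt it was 1.53 in macrophages without TNF and -1.07 in neutrophils, a gap of 2.61. Each value rests on 1 array per genotype, and neither difference between cell types was tested.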

How the results depend on the processing

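No paired analysis within a condition was possible because each group had 1 array and the numbers in the labels mark no replicate. No array could be left out of a group either. KO and WT arrays pair by condition only, and no fit over those 3 pairs was made. Member counts that moved by over 1.5 times were those of KO against WT, given next, and that of the TNF differences compared between genotypes. Without TNF (2 members) the count was 1 with spike-in scaling, 1 with probes well above background on all 6 arrays and 4 at 1.5-fold. With TNF (3) it was 1 with spike-in scaling, and in neutrophils (2) it was 1 with normexp correction. For the TNF differences compared between genotypes (1 member, Fcgr1), Fcgrt (-1.10) was past 1 in size too with spike-in scaling. At 1.5-fold Fcgr4 (0.73) and Fcgrt (-0.84) were added there. Fcgrt in neutrophils against macrophages of WT reversed to -0.33 with spike-in scaling. Counts over all genes are given in the order KO against WT without TNF, with TNF and in neutrophils, then TNF in WT and in KO, where the values as reported were 1387, 2293, 2010, 2215 and 1956. They were 438, 819, 817, 1071 and 963 with normexp, 3355, 4392, 4211, 4276 and 3737 without a filter on dim probes, 735, 1411, 1168, 1305 and 1224 with probes well above background on all 6 arrays, and 3676, 5156, 4954, 5346 and 5012 at 1.5-fold. With spike-in scaling the first was 2197 and the second 5464, of which 19.9% and 8.55% were higher, against 72.5% and 72.2% as reported. Neutrophils against macrophages gave 17701 in WT (11.1% higher) and 16883 in KO (9.94% higher) with spike-in scaling, against 11112 (59.6%) and 11194 (56.3%) as reported, and 18863 in WT with no filter. Genes whose TNF differences differed by at least 1 between genotypes numbered 460, against 123 with normexp, 3859 with no filter and 1928 at 1.5-fold. Fewer or more genes enter under the filters by construction, and the other causes were not tested. The other counts stayed within 1.5 times of the reported ones. Signal over background limits Fcer1a in neutrophils and Ms4a2 everywhere.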
